A study of Mus musculus with 38 samples.

Results

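Solute carriers are the membrane proteins, named Slc by family, that move amino acids, sugars, metals, ions, lipids and vitamins across the cell surface and the membranes of organelles. The genes described here are the 94 solute carrier genes expressed in at least 1 of 13 sorted myeloid populations of mouse skin, blood and skin-draining lymph node. They were chosen by symbol (Slc and a family number) and by level, since a gene was kept when its mean log2 level reached 7 in at least 1 population. Of 364 Slc genes measured by a probe set with a single symbol, 4 that belong to iron, glucose and lactate handling (of 5 named for leaving out) were set aside, and 94 of the other 360 reached the level. The remaining 266 stayed below it in every population. In the arrays, a probe set's log2 level rises by 1 when its signal doubles. The share kept was 26.1%, against 31.3% of all 19937 genes, of which 6243 reached 7. The levels of the kept genes therefore served to choose them and are described, not tested, and a gene that reached 7 on only one side of a comparison had to differ there. Just inside the limit lay Slc22a18 at 7.01, Slc2a3 at 7.01 and Slc36a4 at 7.02 in their highest populations. Just outside lay Slc39a13 at 6.99, Slc30a9 at 6.98 and Slc39a6 at 6.91. The symbol rule also takes in genes that are no carriers themselves. Among them are Slc9a3r1, a scaffold protein that binds the tail of a sodium/hydrogen exchanger, and Slc7a6os, which lies opposite Slc7a6 and is named for it. Slc3a2 is another, the heavy chain that brings light chains to the surface.

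The arrays came from wild-type female C57BL/6 mice of 6 weeks, with no transgene or deletion in any group, and every cell was sorted as CD11b+. At steady state the populations were blood monocytes, 5 dermal CD64-graded populations (P1 to P5), dermal dendritic cells and skin-derived dendritic cells of the lymph node. P1 was CD64low Ly6Chi CCR2+ MHCII-, P2 was CD64+ Ly6Chi CCR2+ MHCII+, and P3 was CD64+ Ly6Clow CCR2+ MHCII+. P4 and P5 were the Ly6C- CCR2- CD64+ macrophages, MHCII- and MHCII+ in turn. Dermal dendritic cells were CD24- Ly6C- CD64- MHCII+, and node dendritic cells were CD11c+ MHCIIhi and negative for CD24, Ly6C and CD64. In other mice, 10 µl of 0.5% DNFB, a contact sensitizer that inflames the skin, was put on the ear 3 days before P1, P2, dermal dendritic cells, node dendritic cells and Ly6C+ CD64+ node cells were taken. The labels name those last cells both as migratory non-dendritic cells and as migratory dermal monocytes, so they are called node CD64+ cells here. Each population had 3 arrays from separate pools of mice, except P1 after DNFB with 2, which made 38 arrays. Each pool gave 5000 to 10000 cells and 5 to 20 ng of RNA, which was amplified, and p-values measure the spread between such pools.

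Carriers work as ports with a fixed substrate and place. Those at the surface decide what a cell can take in, those of lysosomes empty digested cargo into the cytosol, those of the Golgi load sugar nucleotides for glycosylation, and the Slc25 family links mitochondria to the cytosol. In macrophages and dendritic cells, carriers are known for feeding growth and cytokine production with amino acids, for exchanging cystine for glutamate to make glutathione, and for clearing iron, heme and peptides from engulfed material. Several amino acid carriers are known targets of the amino acid response, in which the factor ATF4 binds a composite site, and the zinc exporter Slc30a1 is a known target of the zinc sensor MTF1.

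The promoters of 4 members on which the results below turn are shown as the 250 bases before the RefSeq start (GRCm38.p6), read 5′ to 3′ on the gene's strand. Capitals mark the searched motif. The first 2 were searched for the ATF4 core TTGCATCA, because both genes rose together between blood and skin. The third was searched for the metal response element core in its forms TGCGCNC and TGCACNC, and the last for the ETS site GAGGAAG, all on both strands.
Slc7a11 (chr3:50443614-50443863, minus strand): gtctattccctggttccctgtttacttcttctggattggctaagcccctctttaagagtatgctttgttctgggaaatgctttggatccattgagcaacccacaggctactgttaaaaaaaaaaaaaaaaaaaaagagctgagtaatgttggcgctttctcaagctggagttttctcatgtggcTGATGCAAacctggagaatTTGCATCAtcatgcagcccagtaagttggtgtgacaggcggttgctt
Slc3a2 (chr19:8713898-8714147, minus strand): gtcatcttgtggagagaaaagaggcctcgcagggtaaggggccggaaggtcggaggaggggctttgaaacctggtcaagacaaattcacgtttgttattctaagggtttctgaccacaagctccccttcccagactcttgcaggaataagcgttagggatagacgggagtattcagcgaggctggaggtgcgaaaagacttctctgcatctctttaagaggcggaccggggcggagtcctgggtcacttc
Slc30a1 (chr1:191906531-191906780, plus strand): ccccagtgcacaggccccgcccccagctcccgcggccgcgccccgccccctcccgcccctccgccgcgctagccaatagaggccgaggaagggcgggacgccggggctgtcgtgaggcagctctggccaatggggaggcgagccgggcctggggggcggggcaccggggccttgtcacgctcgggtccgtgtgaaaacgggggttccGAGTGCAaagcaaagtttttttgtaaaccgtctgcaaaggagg
Slc27a3 (chr3:90389939-90390188, minus strand): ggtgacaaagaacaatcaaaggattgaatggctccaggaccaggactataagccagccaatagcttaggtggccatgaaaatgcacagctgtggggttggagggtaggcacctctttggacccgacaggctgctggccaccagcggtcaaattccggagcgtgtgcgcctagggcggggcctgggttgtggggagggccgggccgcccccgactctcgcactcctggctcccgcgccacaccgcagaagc

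The Slc7a11 promoter held the ATF4 core in both orientations, with first bases at -66 and -47 from the start, while the windows shown of Slc3a2 and Slc27a3 held no match to their motif. Promoters of 300 bases (250 before the start and 50 after it) were given for 73 of the 94 members, 97 promoters in all. TTGCATCA occurred in 4 of the 97 (4.12%), and in 0.895% of 32851 promoters of all genes. The 4 belong to 3 genes, Slc7a11, Slc50a1 and Slc7a7, since 2 overlapping promoters of Slc7a7 hold the same site. The metal response element core TGCGCNC was found in 24.7% of member promoters and 15.4% of all, and its second form TGCACNC in 15.5% and 12.6%. The other shares were 18.6% and 12.4% for the antioxidant response element core TGACNNNGC, 12.4% and 7.15% for the E-box CACGTG, and 12.4% and 13.6% for GAGGAAG. These matches describe letters and were not tested as binding sites.

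Across arrays the median level lay between 4.39 and 4.65, and replicate arrays correlated at 0.947 to 0.993. The files give no call of detected or undetected, so a level near the array median is a low signal and folds from it are folds of the deposited values. Marker lists were set against the sorts: the mean of 6 macrophage genes was 10.4 in P4 and 4.36 in node dendritic cells, and Flt3 was 8.73 in dermal and 9.74 in node dendritic cells. Keratinocyte and fibroblast genes moved with tissue of origin. The mean of 14 keratinocyte genes was 4.54 in blood monocytes, 7.52 in P1, 8.08 in P2 and 7.04 in dermal dendritic cells, and 4.82 in node dendritic cells. The mean of 11 fibroblast genes was 4.30 in blood, 8.22 in P2, 5.49 in dermal and 4.51 in node dendritic cells. In P1 it was 6.54, 10.2 and 7.25 on the 3 arrays. The part of these cells' RNA in any difference between blood, skin and node was not tested. An adjusted fit is quoted below, with slopes taken from the spread within populations. Across list means that do not overlap, it cannot separate that RNA from other differences. In such bulk samples fewer cells of a type and less RNA per cell cannot be told apart. Array 3 of the node CD64+ cells stood apart: its macrophage list mean was 8.67 against 7.52 and 7.34 on the other arrays, and its dendritic cell list mean was 8.62 against 9.18 and 9.23. Over their 3 arrays, the node CD64+ cells had a dendritic cell list mean of 9.01, as high as node dendritic cells (8.80 at steady state, 8.96 after DNFB) and above their own macrophage list mean of 7.84, with Mertk at 7.57 and Flt3 at 9.60.

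The median spread between a member's highest and lowest population mean was 2.13 log2 units, against 1.55 among the genes that reached 7 and 0.70 among all genes, and 54 members (57.4%) spanned at least 2 units. A moderated F test (limma) over the 13 population means called 80 of 94 members (85.1%), 40.1% of all genes and 79.8% of the 6243 genes that reached 7. It uses the values that chose the members, so nothing is read from it. The widest spans belonged to Slc9a9 (5.79), an endosomal sodium/hydrogen exchanger, Slc7a11 (5.65), the cystine/glutamate exchanger, Slc27a3 (4.97), a long-chain acyl-CoA synthetase of the fatty acid transport family, Slc22a23 (4.81), a carrier of unknown substrate, and Slc4a8 (4.74), a sodium-driven chloride/bicarbonate exchanger. Slc44a2 (4.70), a choline-like transporter, Slc15a3 (4.55), a lysosomal histidine and peptide transporter, Slc30a4 (4.34), a zinc transporter, and Slc7a8 (4.30), a light chain for neutral amino acids, came next. At the other end stood Slc25a3, the mitochondrial phosphate carrier, with 0.32, Slc25a51, the mitochondrial NAD carrier, with 0.53, and Slc30a7, a Golgi zinc transporter, with 0.60.

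By substrate class (set by family number), the 20 mitochondrial carriers had a median span of 1.30 and 6 of them reached 7 in all 13 populations. The 19 amino acid carriers had a median span of 2.34 and the 12 carriers of zinc and other metals 1.95. Because family sets the class, the 19 include Slc7a6os, which is no carrier, and the heavy chain Slc3a2. The nucleotide sugar class likewise includes Slc35b1, which carries ATP. Over all classes, 18 members reached 7 in all populations, among them Slc3a2, Slc38a2, Slc48a1 and Slc25a5, and 12 reached it in 1 population only, among them Slc16a10 in blood monocytes, Slc2a3 in dermal dendritic cells and Slc25a29 in node dendritic cells. A macrophage population held the highest mean for 23 members (24.5%), against 15.5% of all genes that reached 7. A node dendritic cell population held the lowest mean for 42 members (44.7%), against 31.1% of those genes.

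**Figure D1:**
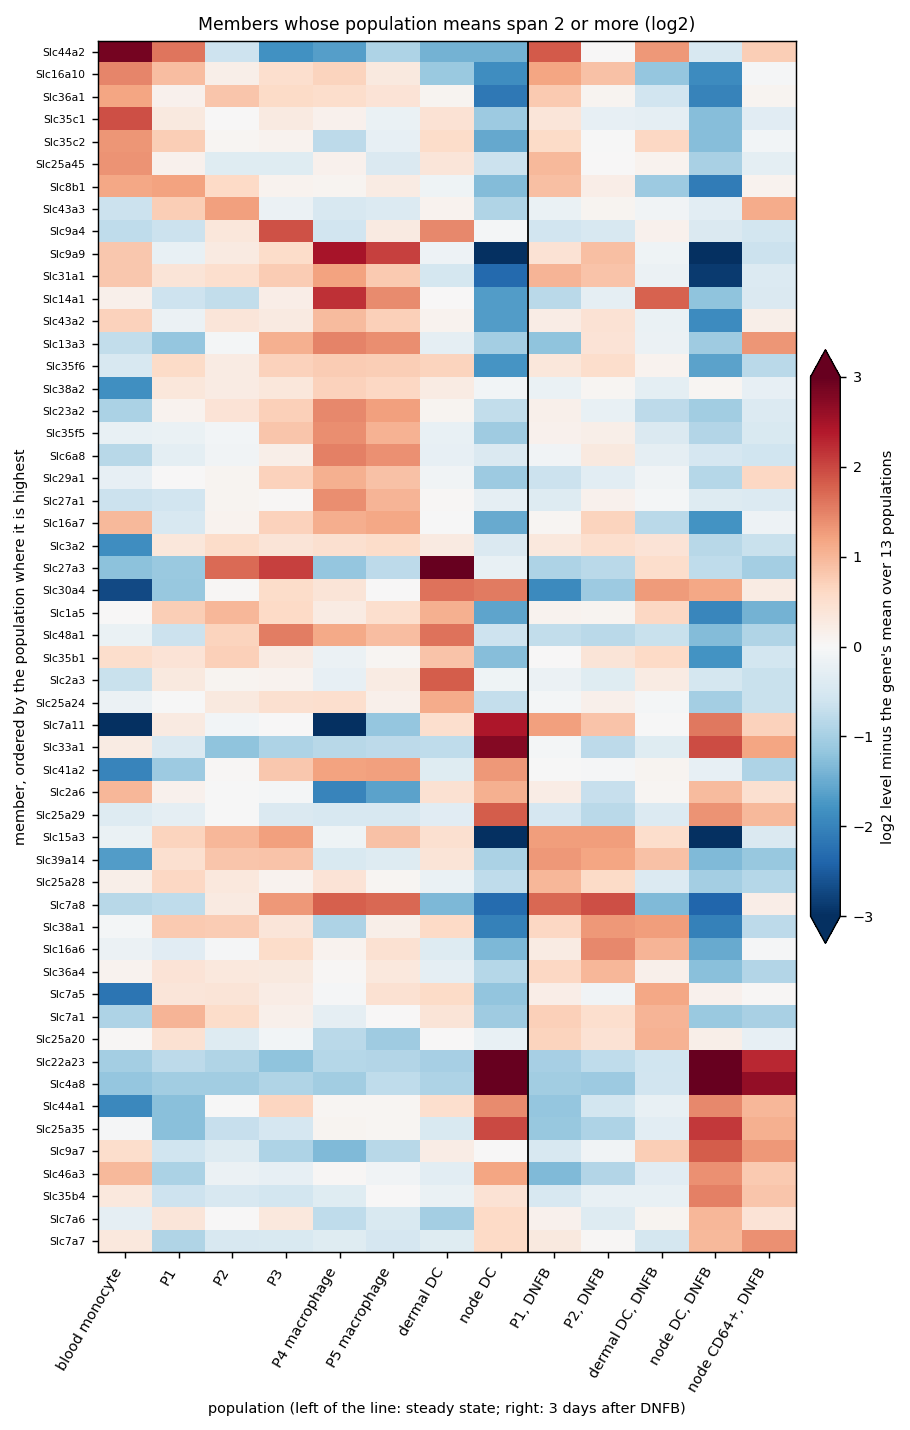
Mean log2 level of the 54 members that span at least 2 log2 units, minus each gene's mean over the 13 populations (colour, cut at -3 and 3), with steady-state populations left of the line and DNFB populations right of it. Slc22a23 and Slc4a8 are high only in the node columns drawn, while Slc9a9, Slc15a3 and Slc7a8 are lowest in the node dendritic cell columns.

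Between blood monocytes and the dermal Ly6Chi MHCII- population P1, the comparison that follows monocytes into the skin, some carriers of amino acids rose and others fell. Slc7a11 rose most, then Slc7a5, the light chain for large neutral amino acids, and Slc3a2, the heavy chain that carries both to the surface. Slc38a2, a sodium-coupled carrier of small neutral amino acids that ATF4 is known to induce, Slc39a14, a zinc and iron importer, and Slc7a1, the cationic amino acid carrier, followed. In all, 16 members rose and 15 fell (17% and 16%), against 5.21% and 7.43% of all genes and 9.9% and 16.9% of the genes that reached 7, so the rising share was the one above both backgrounds. Of the 39 members at 7 or more in both populations, 7 rose and 6 fell. Here and below, such counts have no share of all genes beside them and do not set members against other genes. By class, 6 of 19 amino acid carriers rose and 3 fell, while none of 20 mitochondrial carriers rose and 4 fell.

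Slc3a2 read 7.76, 7.96 and 8.59 in the 3 blood monocyte arrays and 10.34, 10.23 and 10.36 in those of P1. The groups lay far apart, with a log2 difference of 2.21 (SE 0.16, 4.61-fold, adjusted p = 4.9e-11). Slc7a11 read 3.94, 3.87 and 4.06 in blood, below the array medians, and 8.67, 7.53 and 6.17 in P1. Its P1 arrays spread over more than 2 log2 units yet stayed above every blood array, and the difference was 3.50 (SE 0.47, adjusted p = 4.8e-06). Slc38a2 read 8.28, 8.54 and 7.89 against 10.68, 10.28 and 10.24, a difference of 2.17 (SE 0.18, adjusted p = 5.6e-10). Slc7a5 went from 5.79, 5.64 and 6.84 to 8.35, 8.37 and 9.20, again without overlap (2.55, SE 0.28, adjusted p = 1.5e-07). Slc7a1 (1.93) and Slc39a14 (2.15) rose without overlap too.

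Slc46a3, a lysosomal carrier, fell by 1.92 (SE 0.36, adjusted p = 0.00039), from 8.77, 8.96 and 8.38 to 7.30, 7.06 and 5.97. Slc35c1, the Golgi GDP-fucose transporter needed for selectin ligands, fell by 1.65 (SE 0.29, adjusted p = 0.00019), from 8.85, 9.29 and 9.23 to 8.03, 7.58 and 6.81. Both groups of arrays were clear of each other. Slc16a7, a monocarboxylate carrier, Slc44a2, Slc7a7, the light chain for cationic and neutral amino acid exchange, and the mitochondrial Slc25a35 differed by -1.46 to -1.22, but these 4 calls were not stable: without P1 array 3 the adjusted p was 0.12 for Slc16a7, 0.15 for Slc44a2, 0.35 for Slc7a7 and 0.078 for Slc25a35.

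Of the skin cell lists, 12 of 14 keratinocyte and 11 of 11 fibroblast genes also rose between these groups, and with their means as covariates 5 members were called. These 5 were Slc7a11, Slc3a2, Slc38a2, Slc6a6, the taurine carrier, and Slc35f6, all higher in P1, whereas Slc7a5 kept a difference of 2.06 with adjusted p = 0.085. The keratinocyte mean was 4.45 to 4.64 in blood arrays and 6.95 to 7.95 in P1 arrays. Without overlap, the covariate fit cannot separate skin cell RNA from other differences, and nothing is concluded from its count. The count was 18 when only these 2 populations were fitted, 18 without blood array 1 and 19 without blood array 3. Quantile normalization gave 17 higher and 8 lower. Among related genes, 3 of 13 amino acid response genes rose and 2 fell, with a list mean of 6.98 in blood monocytes and 7.19 in P1. Of single genes in that list, Atf4 differed by 1.36 and Asns, asparagine synthetase, by 0.95. Of 11 antioxidant response genes 2 rose and none fell (Srxn1 1.97, Txnrd1 1.47), and of 5 zinc binding and sensing genes the metallothioneins Mt1 (2.82) and Mt2 (6.16) rose.

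**Figure D2:**
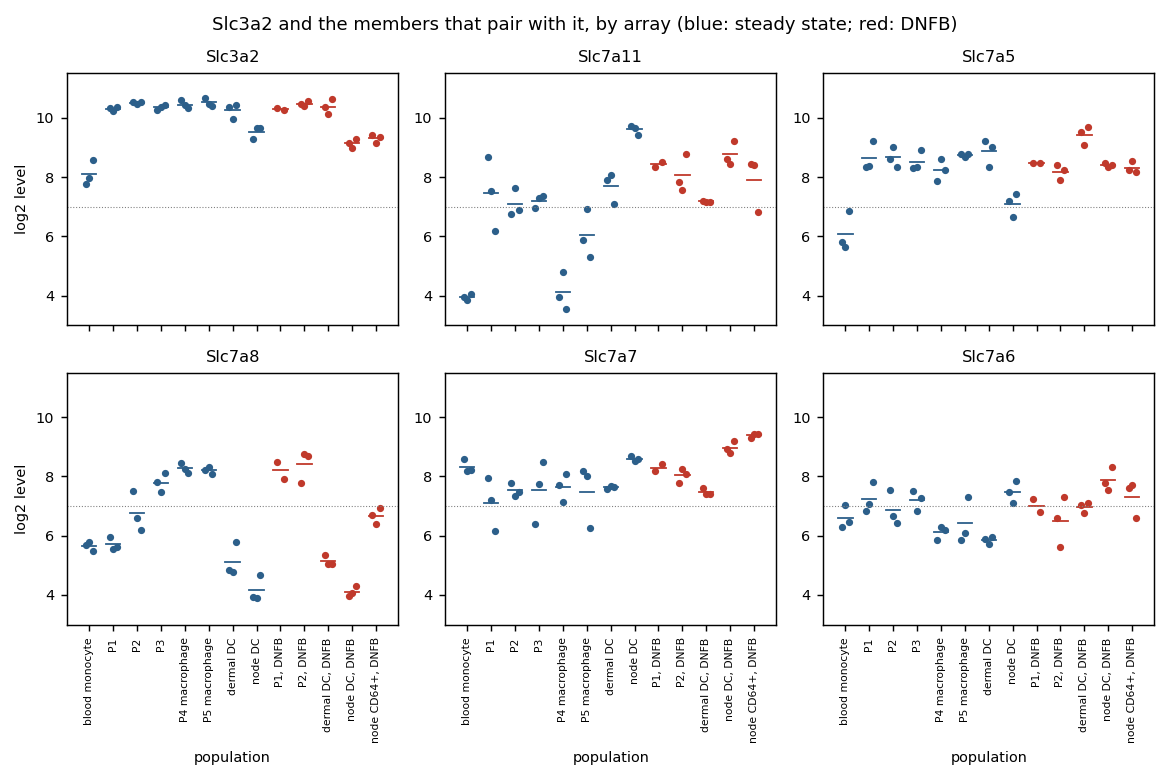
Log2 level by array of Slc3a2 and 5 light chains that pair with it in the 13 populations (points, arrays; bars, population means; dotted line, the level of 7; blue, steady state; red, DNFB). Slc3a2 is at 9.95 or higher in every dermal array, while Slc7a8 is high in P3 to P5 and in the DNFB samples of P1 and P2, and Slc7a11 is highest in steady-state node dendritic cells.

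From P1 to the MHCII+ population P2, 5 members rose and 1 fell (5.32% and 1.06%), against 1.34% and 0.742% of all genes and 3.67% and 1.75% of the genes that reached 7. Of the 46 members at 7 in both, 2 rose and 1 fell. Slc27a3 read 4.01, 4.07 and 4.05 in P1, below the array medians, and 6.95, 6.55 and 7.03 in P2, a 6.98-fold difference (2.80, SE 0.26, adjusted p = 2.4e-08). Slc48a1, which moves heme out of lysosomes after red cells are engulfed, read 8.09, 8.27 and 7.28 and then 9.48, 9.27 and 8.87 (1.32, SE 0.24, adjusted p = 0.0014). Both genes' arrays stood apart without overlap. Slc44a1, a choline transporter (1.24), Slc41a2, a magnesium carrier (1.14), and Slc9a4, a sodium/hydrogen exchanger (0.98), rose by less. Slc44a2 fell by 2.23 (SE 0.39, adjusted p = 0.00072), from 9.22, 10.12 and 8.88 to 7.42, 6.91 and 7.21. Only Slc27a3 was still called when these 2 populations were fitted alone. Without P2 array 1 the count was 3 and the adjusted p was 0.14 for Slc44a1, 0.16 for Slc41a2 and 0.076 for Slc9a4. P1 array 1, P1 array 3 and P2 array 3 each ended the calls of Slc44a1 and Slc41a2 as well (0.14 and 0.059, 0.14 and 0.096, and 0.075 and 0.065), and P2 array 2 that of Slc44a1 (0.074).

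Between P2 and P3, the Ly6Clow MHCII+ cells, 1 member rose and none fell, against 0.176% and 0.196% of all genes and 0.449% and 0.481% of the genes that reached 7 (limma, with 17 members at an unadjusted p under 0.05). None of the 47 members at 7 in both was called. Slc9a4 read 6.43, 6.10 and 5.42 in P2 and 7.28, 7.80 and 7.59 in P3 (1.57, SE 0.20, adjusted p = 7.5e-05), without overlap. It reached 7 in steady-state P3 and dermal dendritic cells alone, so the choice by level favoured this rise. Fitting these 2 populations alone gave adjusted p = 0.2 for it. Without P2 array 1 there were 5 calls, and 2 without P3 array 1.

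Dermal dendritic cells and P3 share MHCII but not CD64, and here 2 members were higher and 4 lower in the dendritic cells (2.13% and 4.26%), against 0.747% and 1.05% of all genes and 1.71% and 3% of the genes that reached 7. Of the 47 at 7 in both, 1 rose and 1 fell. Slc2a3, the neuronal-type glucose transporter, read 5.79, 4.74 and 5.41 in P3 and 6.41, 7.34 and 7.29 in dermal dendritic cells (1.70, SE 0.26, adjusted p = 0.00017). It reached 7 in steady-state dermal dendritic cells alone, so the choice by level favoured this direction. Slc27a3 was higher by 1.68 (SE 0.26, adjusted p = 0.00025), at 8.67, 9.32 and 8.68 against 6.76, 7.30 and 7.58. Slc7a8 was lower by 2.66, at 4.83, 4.76 and 5.79 against 7.79, 7.46 and 8.11 (log2 difference -2.66, SE 0.29, adjusted p = 1.3e-06). None of these 3 genes had overlapping arrays. Slc16a10, a carrier of aromatic amino acids (-1.63), Slc41a2 (-1.17) and Slc15a3 (-0.74) were also lower. Only Slc7a8 was still called with these populations fitted alone. Without P3 array 2 the count was 3, with adjusted p of 0.065 for Slc16a10 and 0.12 for Slc41a2. Slc16a10 was also lost without dendritic cell array 2 (0.065), Slc41a2 without dendritic cell array 1 (0.072), and Slc15a3 without any one of the 6 arrays (0.079 to 0.17).

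The macrophages P4 and P5, averaged, differed from dermal dendritic cells in 29 members. 15 were higher and 14 lower (16% and 14.9%), against 4.73% and 5.09% of all genes and 10.6% and 12% of the genes that reached 7, and of the 42 members at 7 in all 3 populations 5 were higher and 3 lower. By class, 4 of 19 amino acid carriers were higher and 2 lower. Slc7a8 stood at 8.27 ± 0.16 in P4 and 8.21 ± 0.12 in P5 against 5.13 ± 0.58 in dermal dendritic cells (SD, n = 3 each), a difference of 3.11 (SE 0.25, adjusted p = 3.1e-10). Slc9a9 read 10.18, 9.77 and 9.99 in P4 and 9.66, 9.45 and 9.53 in P5, against 6.84, 7.43 and 7.82 (2.40, SE 0.30, adjusted p = 1e-06). No macrophage array overlapped a dendritic cell array for either gene. Slc14a1, a urea transporter (1.80), Slc13a3, the sodium-coupled dicarboxylate carrier (1.72), Slc6a8, the creatine carrier (1.69), and Slc16a10 (1.60) were higher as well. Of these, Slc6a8 reached 7 in P4 and P5 alone, so the choice by level favoured this direction for it.

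On the lower side Slc27a3 stood out, at 4.03, 4.17 and 3.82 in P4 and 4.55, 4.59 and 3.99 in P5, near or below the array medians, against 8.67, 9.32 and 8.68 in dermal dendritic cells. The difference was -4.70 (SE 0.23, 26-fold, adjusted p = 1e-14). Slc7a11 was lower in the macrophages by 2.62 (log2 difference -2.62, SE 0.41, adjusted p = 2.9e-05), but P5 arrays (5.86, 6.92 and 5.32) lay above those of P4 (3.96, 4.80 and 3.57). The glucose-family carriers Slc2a6 (-2.25) and Slc2a3 (-1.82), the exchanger Slc9a4 (-1.58) and the zinc transporter Slc30a4 (-1.43) were lower too. Slc2a3 is a member through its level in dermal dendritic cells alone, and Slc27a3 and Slc9a4 reached 7 in steady-state P3 and dermal dendritic cells alone. The choice by level thus favoured lower macrophage values in these genes. Between MHCII+ P5 and MHCII- P4 1 member differed, Slc15a3, higher in P5 by 1.00 (SE 0.20, adjusted p = 0.0069), at 10.04, 10.04 and 10.42 against 8.97, 9.70 and 8.84. That was 1 rise and no fall, against 0.291% and 0.201% of all genes and 0.897% and 0.176% of the genes that reached 7, with 53 members at 7 in both and 6 at an unadjusted p under 0.05 (limma). No member was called without P4 array 3, 3 were called without P4 array 2, and 2 without P5 array 1 or P5 array 3. For Slc15a3 the adjusted p was 0.089 without P4 array 3, 0.074 without P4 array 1, 0.078 without P5 array 3 and 0.51 with the 2 populations alone. Of the non-Slc-named carriers, Slco2b1, an organic anion transporter, was higher in the macrophages by 3.39.

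The most calls among members separated dendritic cells of the node from those of the dermis at steady state, the step that follows migration. 14 members were higher in the node and 40 lower (14.9% and 42.6%). Of all genes 10.1% were higher and 10.1% lower, and of the genes that reached 7 the shares were 18% and 26.6%, so the share of lower members exceeded both backgrounds and that of higher members did not exceed the second. The median difference was -0.62 over members, 0.05 over all genes and -0.12 over the genes that reached 7. Among the 29 members at 7 in both, 5 rose and 10 fell. By class, 9 of 19 amino acid carriers, 7 of 12 metal carriers and 5 of 9 nucleotide sugar carriers fell, and 2, 1 and none rose, whereas the 20 mitochondrial carriers split into 5 up and 5 down.

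Slc4a8 and Slc22a23 were at low signal in dermal dendritic cells and high in the node. Both reached 7 in node populations alone, as did Slc25a35, named below. Slc25a29, also named below, reached it in steady-state node dendritic cells alone. The choice by level thus favoured a rise in these genes. It could favour that of Slc33a1 too, which reached 7 in node dendritic cells and in no dermal population. Slc4a8 read 4.20, 4.23 and 3.89 in the dermis and 8.21, 8.49 and 8.41 in the node (4.27, SE 0.25, 19.3-fold, adjusted p = 8.2e-14). Slc22a23 read 4.55, 4.59 and 4.65 and then 8.85, 8.84 and 8.41 (4.10, SE 0.31, 17.2-fold, adjusted p = 2.3e-11). For both, every array of blood and dermis lay below every array of the node populations, the CD64+ cells included. Slc33a1, which brings acetyl-CoA into the secretory pathway, read 5.15, 5.17 and 4.69 against 8.62, 8.20 and 8.72 (3.51, SE 0.43, adjusted p = 2.4e-07). The mitochondrial carriers Slc25a35 (2.46) and Slc25a29 (2.16), the latter for basic amino acids, rose without overlap. So did Slc7a11 (1.92, SE 0.47, adjusted p = 0.0031), from 7.90, 8.08 and 7.08 to 9.72, 9.67 and 9.43, although with keratinocyte and fibroblast means as covariates its adjusted p was 0.25.

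Slc27a3 fell by 3.96 (SE 0.26, 15.6-fold, adjusted p = 1.1e-12), from 8.67, 9.32 and 8.68 to 4.47, 4.58 and 5.74. It reached 7 in steady-state P3 and dermal dendritic cells alone, so the choice by level favoured this fall. Slc15a3 fell by 3.79 (SE 0.20, 13.8-fold, adjusted p = 4e-15), from 9.88, 9.67 and 9.80 to 6.49, 5.93 and 5.57. Slc9a9 fell by 3.17 (SE 0.35, adjusted p = 3.8e-08), from 6.84, 7.43 and 7.82 to 3.90, 4.62 and 4.06. In these 3 genes every node array was below every dermal one. The glutamine carrier Slc1a5 fell by 2.67 (SE 0.28, adjusted p = 1.4e-08), from 8.90, 8.78 and 8.64 to 5.88, 6.61 and 5.83, and the neutral amino acid carrier Slc38a1 fell by 2.61 (SE 0.28, adjusted p = 2.6e-08), from 8.75, 9.24 and 8.63 to 5.94, 6.79 and 6.07. Slc38a2, of the same family, did not pass the test (-0.32, adjusted p = 0.24). Slc35f6, of the Slc35 family, fell by 2.44, Slc7a5 by 1.77 and the heavy chain Slc3a2 by 0.72 (adjusted p = 0.0011).

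Other members moved in either direction. The heme transporter Slc48a1 fell by 2.26, the lysosomal proton-coupled amino acid carrier Slc36a1 by 2.24 and Slc35b1, which brings ATP into the endoplasmic reticulum, by 2.13. Of the zinc importers, Slc39a10 fell by 1.85, Slc39a14 by 1.33 and Slc39a7 by 1.11, and the copper importer Slc31a1 fell by 1.81. The mitochondrial Slc25a24 fell by 1.82, while Slc25a11, the oxoglutarate/malate carrier, rose by 1.11 and Slc25a4, an ADP/ATP carrier, by 0.60. The lysosomal Slc46a3 rose by 1.49.

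The heavy chain and its light chains did not move as 1 group between these 2 populations. Slc7a11 and Slc7a6 (1.61) were higher in the node, Slc7a5 (-1.77), Slc7a8 (-0.96) and Slc3a2 (-0.72) were lower, and Slc7a7 stood at 8.59 ± 0.09 against 7.63 ± 0.06 (SD, n = 3) without passing the test. Of the amino acid response genes 5 of 13 fell and none rose, among them Cebpb (-2.57), Psat1 (-2.48), Atf4 (-1.69) and Atf3 (-1.46). Of the antioxidant response genes 3 of 11 rose and 4 fell, with Nfe2l2, which encodes the factor NRF2, at -2.08. Of 21 transporter partners and non-Slc-named carriers none rose and 7 fell, among them Emb (-4.76), a chaperone of monocarboxylate carriers, and Lamtor4 (-1.73), a lysosomal scaffold subunit. Markers of other cells moved as well: 12 of 14 keratinocyte genes and 5 of 6 macrophage genes were lower in the node. The macrophage list mean ranged from 7.86 to 8.21 over the dermal arrays and from 4.26 to 4.46 over the node arrays, though Mertk, which defines tissue macrophages, was low in both (3.84 and 3.52). With keratinocyte and fibroblast means as covariates 39 members were called, 37 of them among the 54, with 7 higher and 32 lower. The keratinocyte mean did not overlap here either, so that fit cannot separate skin cell RNA from other differences. The part of the macrophage genes was not tested.

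**Figure D3:**
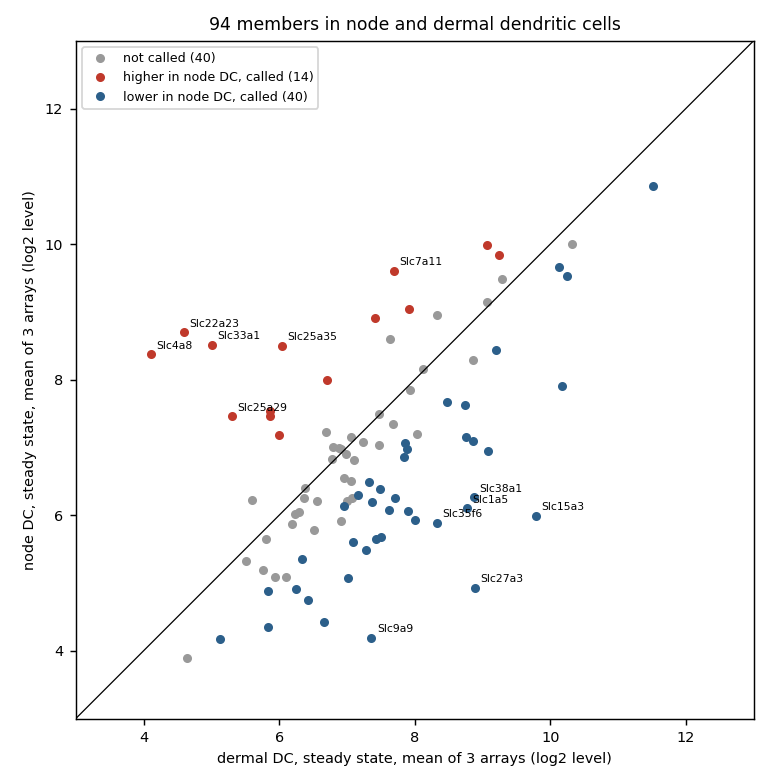
Mean log2 level of each of the 94 members in steady-state dermal dendritic cells (x axis) and node dendritic cells (y axis), 3 arrays each; the line marks equal levels. Of the called members, 40 lie below the line and 14 above it, with Slc4a8 and Slc22a23 farthest above and Slc27a3 and Slc15a3 farthest below.

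DNFB was compared with steady state in 4 populations. These comparisons share their steady-state arrays with those above, the dermal dendritic cells with 3 of them, so their values are given side by side. 18 members (19.1%) were called in at least 1 population, against 6.51% of all genes and 15.1% of the genes that reached 7. Of the members 5 (5.32%) were called in more than 1, against 1.39% and 3.97%: Slc27a3, Slc48a1, Slc9a4 and Slc16a6 in both P2 and dermal dendritic cells, and Slc7a8 in P1 and P2. In P1, 1 member rose and none fell, against 0.562% and 0.0752% of all genes and 1.47% and 0.144% of the genes that reached 7 (limma, with 11 members at an unadjusted p under 0.05). Slc7a8 read 5.96, 5.55 and 5.60 at steady state and 8.50 and 7.92 after DNFB, a 5.67-fold rise (2.50, SE 0.33, adjusted p = 0.00011) with no overlap. The macrophage list mean went the same way, from 7.60, 7.38 and 7.56 to 8.67 and 8.26, with Mertk at 4.17 and 4.66, and its part in the rise was not tested. None of the 48 members at 7 in both states was called. Without P1 array 3 of steady state there were 2 calls, and with the 2 groups fitted alone Slc7a8 had adjusted p = 0.17.

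In P2, 2 members rose and 3 fell (2.13% and 3.19%), against 1.02% and 0.998% of all genes and 2.72% and 2.4% of the genes that reached 7, and of the 43 at 7 in both 1 fell. Slc27a3 read 6.95, 6.55 and 7.03 at steady state and 4.53, 4.37 and 4.14 after DNFB, a drop to the array medians (-2.50, SE 0.26, adjusted p = 2.3e-06). Slc48a1 went from 9.48, 9.27 and 8.87 to 7.81, 7.93 and 7.47 (-1.47, SE 0.24, adjusted p = 0.00053). Slc9a4 fell by 0.82 (adjusted p = 0.026). Slc7a8 rose from 7.51, 6.59 and 6.18 to 7.77, 8.75 and 8.69 (1.65, SE 0.29, adjusted p = 0.0012), and Slc16a6, a monocarboxylate-family carrier, from 6.50, 6.42 and 5.60 to 6.99, 7.86 and 8.11 (1.48, SE 0.29, adjusted p = 0.0035). Of dermal and node populations Slc16a6 reached 7 only in P2 and dermal dendritic cells after DNFB, so the choice by level could favour its rise.

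The P2 arrays differed in their macrophage genes in step with Slc7a8. The macrophage list mean was 9.44, 8.58 and 8.37 on the 3 steady-state arrays and 8.84, 9.67 and 9.38 on the DNFB arrays, so within each state the 3 arrays had the same order for both. The part of macrophages in its rise was not tested. The keratinocyte list was lower after DNFB, at 7.83, 6.39 and 6.06 against 7.71, 8.21 and 8.33. With keratinocyte and fibroblast means as covariates Slc7a8 (1.27, adjusted p = 0.097), Slc16a6 (1.07, adjusted p = 0.19) and Slc9a4 (-1.01, adjusted p = 0.073) lost their calls, while Slc27a3 and Slc48a1 kept theirs. Fitting the 2 groups alone left the same 2 genes called. Slc9a4 was also lost without P2 steady-state array 1 (0.2) or 2 (0.11), without P2 DNFB array 1 (0.097) or 2 (0.1), and with array medians centred (0.057).

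The highest count came from dermal dendritic cells, with 4 members up and 9 down (4.26% and 9.57%), against 2.11% and 2.06% of all genes and 4.92% and 5.25% of the genes that reached 7. Of the 43 members at 7 in both states only Slc48a1 was called. Slc27a3 fell from 8.67, 9.32 and 8.68 to 5.40, 5.36 and 6.32 (-3.20, SE 0.26, 9.17-fold, adjusted p = 2.4e-09), and Slc48a1 from 10.36, 9.99 and 10.17 to 7.88, 7.74 and 7.96 (-2.31, SE 0.24, 4.96-fold, adjusted p = 2e-07). Slc2a3 fell from 6.41, 7.34 and 7.29 to 5.20, 5.54 and 5.58 (-1.57, SE 0.26, adjusted p = 0.00019). It is a member through this steady-state level alone, and Slc27a3 reached 7 in steady-state P3 and dermal dendritic cells alone. The choice by level thus favoured a fall in both genes. Arrays of the 2 states did not overlap for Slc27a3, Slc48a1 or Slc2a3. Slc9a4 (-1.32), Slc22a18 (-1.18), an organic cation transporter of an imprinted region, Slc25a24 (-1.17), the mitochondrial ATP-Mg/phosphate carrier, and the zinc exporter Slc30a1 (-0.97) fell too. Like Slc27a3, Slc9a4 reached 7 in steady-state P3 and dermal dendritic cells alone, so its fall was favoured as well. Slc25a24 was above 7 in these cells at steady state and below it after DNFB.

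Slc44a2 rose from 6.18, 7.08 and 5.89 to 9.07, 8.63 and 9.61, all 3 DNFB arrays above the steady-state ones (2.72, SE 0.39, 6.58-fold, adjusted p = 2.7e-05). Slc14a1 rose from 5.75, 6.89 and 6.65 to 8.22, 7.95 and 8.37 (1.75, SE 0.40, adjusted p = 0.0076; without steady-state array 1, 1.41 and 0.077). Slc16a6 rose by 1.40 (adjusted p = 0.0033, and 0.064 with the keratinocyte and fibroblast covariates). Slc38a9, the lysosomal arginine sensor, rose by 1.20 (adjusted p = 0.026), a call lost without steady-state array 1 (0.15) or 3 (0.06) or DNFB array 1 (0.19) or 3 (0.08). Of dermal and node populations, Slc38a9 reached 7 in this one alone, and Slc16a6 in this one and in P2 after DNFB. The choice by level could thus favour both of these rises. Other cells' markers moved with the values of the members. Of 5 T cell genes 3 rose in the dermal dendritic cells, with list means of 4.66 to 5.14 at steady state and 5.60 to 6.32 after DNFB. Fcgr1, the gene of the gating marker CD64, went from 5.94 to 7.98, while Mertk was at 3.84 and 3.71. The monocyte list mean ranged from 5.51 to 6.05 at steady state and from 6.55 to 6.81 after DNFB. The keratinocyte list mean ranged from 6.79 to 7.34 and then from 5.44 to 6.29, and neither list overlapped between the states. The part of these cells in the 4 rises and 9 falls was not tested.

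Of 5 zinc binding and sensing genes none rose and 2 fell in each of P2 and dermal dendritic cells, with Mt2 at -1.75 and -1.92. Slc30a1, whose promoter is shown above, was called in the second of these (-0.97), in P1 against blood monocytes (0.75), where Mt1 and Mt2 rose, and in node against dermal dendritic cells (-0.84), where both fell. It was also higher in node CD64+ cells than in node dendritic cells (0.86, adjusted p = 0.025), where Mt2 differed by -0.91 without passing the test. Of the 13 amino acid response genes 1 rose and 3 fell in dermal dendritic cells, and none was called in P1, P2 or node dendritic cells.

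**Figure D4:**
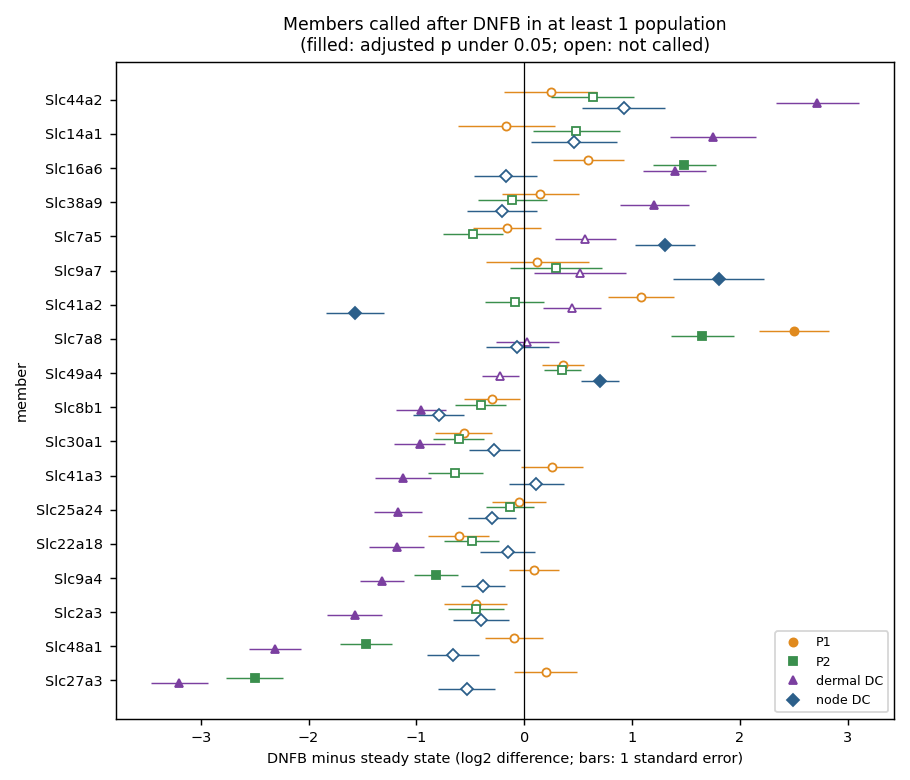
Log2 difference between DNFB and steady state, with bars of 1 standard error, for the 18 members called in at least 1 of P1, P2, dermal and node dendritic cells (filled, adjusted p under 0.05; open, not called). Slc27a3 and Slc48a1 lie far to the left in P2 and dermal dendritic cells and near zero in P1, and Slc7a8 lies to the right in P1 and P2.

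The effects in dermal dendritic cells and P2 were set against each other in a contrast of the 4 group means, and no member passed (limma, 15 at an unadjusted p under 0.05), against 0.251% of all genes and 0.609% of the genes that reached 7. The largest member differences were 2.08 for Slc44a2 (adjusted p = 0.15) and -1.62 for Slc7a8 (SE 0.41, adjusted p = 0.12), so that the rises of Slc44a2 in 1 population and of Slc7a8 in the other were not shown to be particular to either. Without P2 steady-state array 1, or without P2 DNFB array 1, there was 1 call.

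In node dendritic cells DNFB raised 3 members and lowered 1 (3.19% and 1.06%), against 0.903% and 0.441% of all genes and 1.91% and 1.04% of the genes that reached 7, and of the 36 at 7 in both 2 rose. Slc9a7, a Golgi sodium/hydrogen exchanger, read 5.73, 6.27 and 6.04 and then 7.78, 7.76 and 7.90 (1.80, SE 0.42, adjusted p = 0.022). Of dermal and node populations it reached 7 only in node dendritic cells and node CD64+ cells after DNFB, so the choice by level could favour this rise. Slc7a5 read 7.20, 6.66 and 7.43 and then 8.47, 8.32 and 8.41 (1.30, SE 0.28, adjusted p = 0.01). Slc41a2 fell by 1.57, from 7.40, 7.76 and 7.47 to 5.80, 6.22 and 5.91 (SE 0.27, adjusted p = 0.00091). All 3 were without overlap. Slc49a4, a lysosomal membrane carrier, rose by 0.70 (adjusted p = 0.032). The calls apart from Slc41a2 were near the limit: without node steady-state array 1 or 3 Slc9a7 had adjusted p of 0.12 and 0.073, without DNFB array 1, 2 or 3 it had 0.079, 0.068 and 0.081, and Slc7a5 had 0.11 without steady-state array 2 and 0.055 without DNFB array 1. Slc49a4 had 0.22 and 0.09 without steady-state array 2 or 3, and 0.15 and 0.13 without DNFB array 2 or 3. The count was 2 without any of these arrays except steady-state array 1.

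The DNFB effect differed between node and dermal dendritic cells in 3 members (3.19%), against 1.31% of all genes and 3.19% of the genes that reached 7, a share equal to the latter. Slc27a3 went down by 3.20 in the dermis and by 0.53 in the node, where it was already low, and the difference of effects was 2.66 (SE 0.37, adjusted p = 9.8e-05). As it reached 7 in steady-state P3 and dermal dendritic cells alone, the choice by level favoured its dermal fall and so this difference. Slc48a1 differed by 1.65 (SE 0.34, adjusted p = 0.0085), with -2.31 in the dermis and -0.66 in the node. Slc41a2 went the other way, with 0.44 in the dermis and -1.57 in the node (difference of effects -2.01, SE 0.38, adjusted p = 0.0037). Quantile normalization gave 2 differences in each direction, and 5 calls were made without dermal steady-state array 2.

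**Figure D5:**
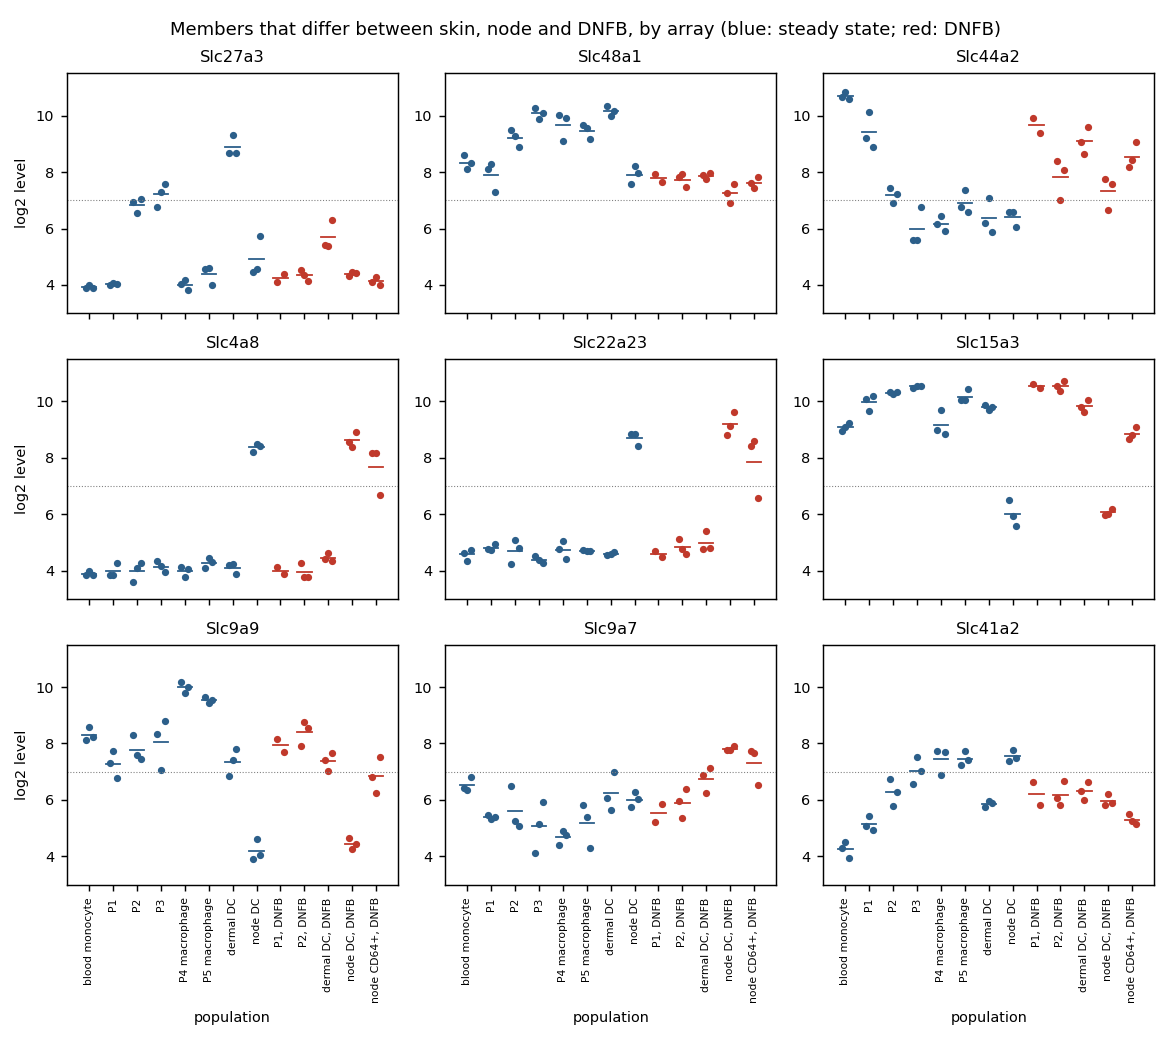
Log2 level by array of 9 members in the 13 populations (points, arrays; bars, population means; dotted line, the level of 7; blue, steady state; red, DNFB). Slc27a3 is above 6 in steady-state P2, P3 and dermal dendritic cells and in 1 DNFB array of dermal dendritic cells, and Slc4a8 and Slc22a23 are above 6 in node arrays alone.

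Of the inflamed node, the CD64+ cells were set against the dendritic cells, and 20 members were higher and 2 lower (21.3% and 2.13%), against 3.82% and 1% of all genes and 11.1% and 1.2% of the genes that reached 7. Of the 38 members at 7 in both, 2 were higher and 2 lower. Slc15a3 read 8.67, 8.80 and 9.10 in the CD64+ cells and 5.97, 6.02 and 6.19 in dendritic cells (2.79, SE 0.20, 6.94-fold, adjusted p = 1.1e-11). Slc7a8 read 6.69, 6.40 and 6.95 against 3.95, 4.05 and 4.31 (2.57, SE 0.29, adjusted p = 1.9e-07). The copper importer Slc31a1 read 7.20, 7.04 and 7.96 against 4.84, 4.60 and 5.40 (2.45, SE 0.38, adjusted p = 3.2e-05). These groups did not overlap. Slc9a9 (2.41), Slc13a3 (2.40) and the mitochondrial sodium/calcium exchanger Slc8b1 (2.21) were higher as well.

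Slc4a8 and Slc22a23 were high in both node populations, in the CD64+ cells at 8.17, 8.16 and 6.68, and at 8.42, 8.58 and 6.59. Array 3, which stood apart in its marker lists, held the low value of each. Their differences from the dendritic cells were -0.96 (adjusted p = 0.021) and -1.33 (adjusted p = 0.0073), and without that array -0.46 (0.35) and -0.70 (0.15). Without it 11 members were called, all higher in the CD64+ cells and all among the 22. Slc4a8 was lost too without dendritic cell array 1 (0.052) or 3 (0.10), and Slc22a23 without dendritic cell array 3 (0.059). Quantile normalization gave 18 higher and 6 lower, and array weights 34 calls. Emb, which was low in node dendritic cells, was higher in the CD64+ cells by 1.78.

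Within each of 9 families with 3 or more members, the least correlated pair over the 13 population means was picked, so low values are selected, and the means share arrays. This is a description. Pearson's r was -0.87 for the mitochondrial carriers Slc25a28 and Slc25a35, -0.84 for Slc35b4 and Slc35f6, -0.77 for Slc7a1 and Slc7a7, -0.65 for the exchangers Slc9a7 and Slc9a9, and -0.60 for Slc38a2 and Slc38a9. In the other 4 families the lowest r was -0.44 (Slc41a2 and Slc41a3), -0.33 (Slc30a1 and Slc30a4), -0.12 (Slc39a10 and Slc39a14) and 0.54 (Slc16a10 and Slc16a6). In Slc9a7 and Slc9a9 the contrast was between node dendritic cells after DNFB, at 7.82 ± 0.08 and 4.45 ± 0.20, and P4, at 4.69 ± 0.25 and 9.98 ± 0.20 (SD, n = 3). Each member was read from 1 probe set. For the 7 members with others, the alternative probe sets of Slc44a1 and Slc38a1 followed the kept one (r of 0.99 and 0.96), and those of Slc25a36 (0.53) and Slc38a9 (0.65) did so less closely.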

How the data were processed

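The 38 arrays were Affymetrix Gene 1.0 ST arrays. The deposited values are log2 expression values. The submitters' processing notes name RMA and affy for them, and versions are not given in the sources used here. RMA subtracts background, equalises the distributions of all arrays and summarises each probe set, so differences in total RNA are removed. The labels speak of several chip batches without saying which array was in which, so batch could not be fitted.

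Of 34760 probe sets, 21640 had 1 gene symbol in the platform annotation, 1321 had several and 11799 had none. Genes with several probe sets (954) were read from the one with the highest mean. All 94 members matched RefSeq by gene identifier. The members and all gene lists were chosen with earlier results of these data known.

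Groups came from the sample titles. A linear model of the 13 population means was fitted over all 19937 genes with limma 3.58.1 in R 4.3.3 (moderated variances, residual degrees of freedom 25, prior 3.13), and p-values were Benjamini-Hochberg adjusted over all genes within each of 14 comparisons. Genes with an adjusted p below 0.05 were called. The number of arrays limits the precision. Named genes were, per comparison, up to 6 called members in each direction with the largest differences among those whose arrays did not overlap, the members with the widest and narrowest spans and nearest the level of 7, up to 4 genes of each related list by the F test, and the least correlated pair of each family. Others in the text were chosen after their values were seen. Tables were made with pandas 2.3.3 and numpy 2.4.6 in Python 3.11.15, and the fit was tested on simulated data.

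Alternatives were a replicate block, a random block for the number in the source name, quantile normalization, centred array medians, robust trended variances, array weights, keratinocyte and fibroblast covariates, genes at 7 or more only, only the compared groups, and leaving out each array. Same-numbered arrays deviated together in part. In no comparison did every pair correlate above 0.1. Between P5 and P4 2 of 3 pairs did (highest 0.19), between P2 and P1 1 of 3, and elsewhere none. The monocyte list mean was 5.99, 6.56 and 5.77 in P3, 5.46, 6.30 and 5.08 in P4, and 5.58, 6.35 and 5.01 in P5. These share 1 order of arrays, which P1, P2 and dermal dendritic cells did not have. The main fit does not model such sharing.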

Additional observations from a re-analysis of the deposited data

Results flagged for a closer look

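The DNFB effect differed between node and dermal dendritic cells in 3 members by the contrast of the 4 group means (limma, Benjamini-Hochberg adjusted). The difference of effects, node minus dermal, was 2.66 for Slc27a3 (adjusted p = 9.8e-05), 1.65 for Slc48a1 (adjusted p = 0.0085) and -2.01 for Slc41a2 (adjusted p = 0.0037). Slc27a3 and Slc48a1 were at 4.93 and 7.91 in steady-state node dendritic cells against 8.89 and 10.17 in dermal ones, before any DNFB. The choice by level favoured the difference for Slc27a3, which reached 7 in steady-state P3 and dermal dendritic cells alone.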

How the results depend on the processing

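Counts below are of called members out of 94. The shares of all genes called in each setting are not given, so the counts do not set members against other genes. With only the compared groups fitted, 18 were called for P1 against blood monocytes, 1 for P2 against P1, 0 for P3 against P2, 1 for dermal dendritic cells against P3, 0 for P5 against P4, 0 for the P1 response to DNFB, 2 for that of P2 and 6 for the DNFB effect in node against dermal dendritic cells. With only genes at 7 or more, fewer tests were adjusted for, and the counts were 2 for P3 against P2, 10 for dermal dendritic cells against P3, 5 for P5 against P4, 9 for DNFB in P2, 1 for the DNFB effect in dermal dendritic cells against P2, and 5 for node against dermal dendritic cells. Array weights gave 2 for P3 against P2, 5 for P5 against P4, 2 for DNFB in P1, 7 for DNFB in node dendritic cells, 34 for node CD64+ cells, and 1 and 11 for the contrasts of DNFB effects against P2 and between dendritic cells. The skin cell covariates gave 5 for P1 against blood, 2 for P3 against P2, 2 for P5 against P4 and 3 for DNFB in P2, and quantile normalization 2 each for P3 against P2 and P5 against P4. The cause of the other moves was not tested.

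A replicate block gave 2 calls for P5 against P4, 31 for P1 against blood monocytes and 55 for node against dermal dendritic cells. It ended the calls of Slc7a7 between P1 and blood (adjusted p = 0.058) and Slc15a3 between dermal dendritic cells and P3 (adjusted p = 0.051). Same-numbered arrays deviated together in part, so these calls depend on whether such a block is fitted.

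Leaving out 1 array at a time gave 78 to 82 members varying over populations, 18 to 25 for P1 against blood, 3 to 9 for P2 against P1, 1 to 5 for P3 against P2, 3 to 7 for dermal dendritic cells against P3, 24 to 29 for macrophages, 0 to 3 for P5 against P4, and 44 to 50 for node against dermal dendritic cells. For DNFB the ranges were 1 to 2 in P1, 4 to 5 in P2, 10 to 12 in dermal and 2 to 3 in node dendritic cells. They were 11 to 21 for node CD64+ cells, and 0 to 1 and 3 to 5 for the contrasts of DNFB effects. Fewer arrays were fitted in each. Of 81 named pairs of member and comparison, none reversed in the 10 other settings or without 1 array, 31 lost their call in some setting and 19 without some array. Signal near the array medians limits the folds of Slc27a3, Slc7a11, Slc4a8 and Slc22a23.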
